A study of Homo sapiens with 4 samples.

Results

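The let-7 family was followed through small RNA libraries of PC-3, an established line of human prostate cancer cells grown from a bone metastasis. The members were taken by name from the deposited table: hsa-let-7a-5p, hsa-let-7b-5p, hsa-let-7c-5p, hsa-let-7d-5p, hsa-let-7e-5p, hsa-let-7f-5p, hsa-let-7g-5p, hsa-let-7i-5p and hsa-miR-98-5p. They are 9 of 1096 listed entries and 9 of the 516 that carry a catalogue name, and the species prefix hsa is left out from here on. The cells were untreated (control, 2 libraries) or had received apelin, the peptide ligand of the receptor APJ, at 10 µg/mL for 24 h (apelin, 2 libraries). All were grown in DMEM with fetal bovine serum and antibiotics. The labels name neither a vehicle in the controls nor separate cultures behind the libraries of a group, so the spread between libraries may be technical. The study's title ties apelin to VEGF-C and lymphatic vessel growth in prostate cancer.

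The let-7 miRNAs were first known as timing regulators of larval development and are conserved across animals. A mature let-7 is cut from the 5′ arm of a hairpin, is loaded into an Argonaute protein and represses messenger RNAs that pair with its seed, the bases from position 2 to 8. Known targets include RAS, MYC and HMGA2, and the RNA-binding proteins LIN28A and LIN28B block the maturation of let-7 hairpins. In prostate and other epithelial tumours the family is regarded as growth-restraining.

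All 9 members share 1 seed and differ elsewhere by a few bases, which is why they are shown together. The sequences are those of RefSeq (GRCh38.p14), matched by name for 9 of 9 members, with the seed in capitals.
let-7a-5p: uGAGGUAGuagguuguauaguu
let-7b-5p: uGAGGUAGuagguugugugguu
let-7c-5p: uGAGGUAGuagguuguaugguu
let-7d-5p: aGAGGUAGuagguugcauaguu
let-7e-5p: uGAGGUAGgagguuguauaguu
let-7f-5p: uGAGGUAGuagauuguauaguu
let-7g-5p: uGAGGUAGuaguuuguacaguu
let-7i-5p: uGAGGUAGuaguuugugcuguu
miR-98-5p: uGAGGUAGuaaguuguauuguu

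The seed pairs with CUACCUC, and a site with an A after it reads CUACCUCA. Counted from 1 at the 5′ end, with the base of let-7a-5p first, let-7c-5p differs by A19G, let-7e-5p by U9G and let-7f-5p by G12A. let-7b-5p carries A17G and A19G, and let-7d-5p carries U1A and U16C. let-7g-5p carries G12U and U18C, and miR-98-5p carries G11A and A19U. let-7i-5p is the most distant from let-7a-5p, with G12U, A17G, U18C and A19U. Over the 36 pairs of members the number of differing bases ran from 1 to 6, with 4 pairs that differ by 1 base. The sources used here do not give how reads shared by near-identical members were assigned, so the counts of such neighbours may hold each other's reads. Every member is 22 nt long, so division by length would not change the order of their levels; differences in ligation and amplification between sequences were not tested. Of 11 mature sequences in the RefSeq table with this seed, 9 are the members, and the other 2, miR-4458 and miR-4500, were not analysed here, nor were the 3p arms of the let-7 hairpins.

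The 9 mature miRNAs come from 12 hairpins (RefSeq coordinates on GRCh38.p14, hosts from GENCODE release 29). On chromosome 9, plus strand, MIRLET7A1 (94175957 to 94176036), MIRLET7F1 (94176347 to 94176433) and MIRLET7D (94178834 to 94178920) lie in introns of the lincRNA AL158152.2. On chromosome 11, minus strand, MIRLET7A2 (122146522 to 122146593) lies in an intron of MIR100HG with MIR100 and MIR125B1. On chromosome 22, plus strand, MIRLET7A3 (46112749 to 46112822) and MIRLET7B (46113686 to 46113768) lie in an exon of MIRLET7BHG. On chromosome X, minus strand, MIR98 (53556223 to 53556341) and MIRLET7F2 (53557192 to 53557274) lie in introns of HUWE1, a ubiquitin ligase gene. On chromosome 21, plus strand, MIRLET7C (16539828 to 16539911) follows MIR99A in an intron of MIR99AHG. On chromosome 19, plus strand, MIRLET7E (51692786 to 51692864) lies between MIR99B and MIR125A in introns annotated to SPACA6. MIRLET7G sits on chromosome 3, minus strand (52268278 to 52268361), in an intron of WDR82, and MIRLET7I on chromosome 12, plus strand (62603686 to 62603769), in an intron of the lincRNA AC048341.1. A count of let-7a-5p or let-7f-5p therefore sums over 3 or 2 hairpins on different chromosomes.

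The libraries held 5322429 to 6014838 counts, and the smallest count of any member was 711 (let-7c-5p in apelin 2). Levels are given in TPM, which in this table is a count scaled by its library's total and not divided by length. Of the markers of the cell type, 5 of 6 epithelial miRNAs were listed, all but miR-141-3p. They summed to 8041 to 8386 TPM in controls and 7866 to 8246 TPM with apelin, mostly miR-200b-3p. Over the 4 libraries miR-200a-3p had 903 to 1216 TPM and miR-429 336.5 to 468 TPM. Low levels were seen for miR-205-5p (72.26 to 97.65 TPM) and miR-200c-3p (22.98 to 33.25 TPM). The prostate luminal marker miR-375-3p was low, at 12.1 to 17.7 TPM. Markers of blood (3 of 7 listed, 29.1 to 40.4 TPM summed), fibroblast and muscle (4 of 6, 5.16 to 6.54 TPM), endothelium (1 of 1, 6.32 to 13.7 TPM) and liver (1 of 1, 1.75 to 4.82 TPM) were low in all libraries. The neuron marker miR-9-5p (1 of 2 listed) was higher, at 298 and 299 TPM in the controls, 300.1 TPM in apelin 1 and 399 TPM in apelin 2, and its part in the members' values was not tested. In bulk libraries fewer cells with a miRNA and less of it per cell cannot be told apart.

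let-7a-5p, the most abundant member, was the third most abundant of all entries in both controls and the fifth in both apelin libraries. It stood at 53985 and 56722 TPM in controls 1 and 2, and at 43825 and 39354 TPM in apelin 1 and 2. let-7i-5p came next in every library, with 17592 and 15668 TPM in the controls and 15406 and 19953 TPM with apelin. let-7g-5p, at 13767 and 13919 TPM in the controls and 11392 and 14586 TPM with apelin, was the third in every library. The range of let-7a-5p lay apart from that of let-7i-5p, and that of let-7i-5p apart from that of let-7g-5p.

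let-7b-5p and let-7f-5p could not be ordered. let-7b-5p stood at 12537 and 9027 TPM in the controls and 10441 and 7807 TPM with apelin, and let-7f-5p at 8272 and 9288 TPM and then 6764 and 8325 TPM. let-7b-5p was the higher of the pair in control 1 and apelin 1, and let-7f-5p in control 2 and apelin 2. let-7g-5p exceeded let-7b-5p in 4 of 4 libraries, but their ranges overlapped.

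The lower members kept 1 order in all 4 libraries. let-7e-5p had 5104 and 4233 TPM in the controls and 3567 and 3025 TPM with apelin. let-7d-5p had 3051 and 3079 TPM and then 2508 and 2177 TPM. let-7e-5p exceeded let-7d-5p in each library, with overlapping ranges over the 4. miR-98-5p had 877 and 1109 TPM in the controls and 733 and 1083 TPM with apelin. let-7c-5p was the lowest, with 193.9 and 199.7 TPM in the controls and 160.1 and 124.7 TPM with apelin, and ranked 128 to 147 among all entries. At this depth the exact Poisson 95% interval of let-7c-5p was 183 to 205 TPM in control 1 and 116 to 134 TPM in apelin 2, for counting error only, since amplified reads lack molecular identifiers here and are not separate molecules. From let-7a-5p to let-7c-5p, which differ by 1 base, the mean level spanned 286-fold.

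**Figure D1:**
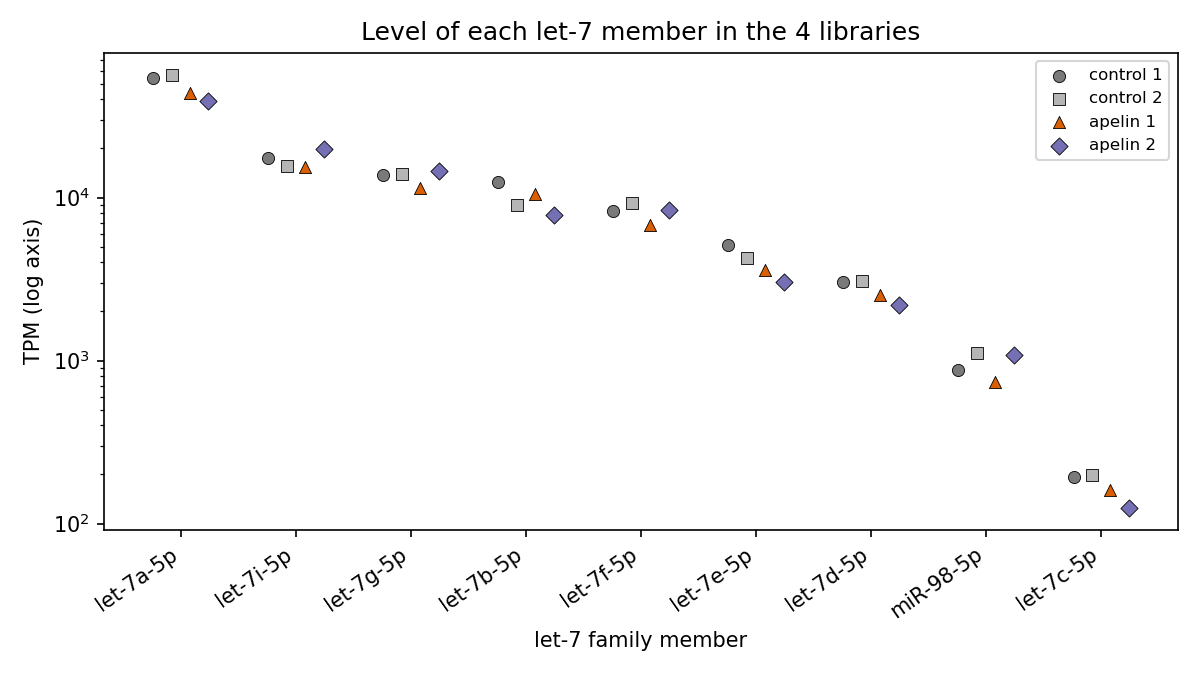
Level of each let-7 member in TPM on a log axis, 1 point per library, members ordered by mean level. let-7a-5p is highest in all 4 libraries and let-7c-5p lowest, and the ranges of let-7b-5p and let-7f-5p overlap.

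The family as a whole held a smaller part of the apelin libraries. Its summed counts were 11.54% of control 1 and 11.32% of control 2, against 9.48% of apelin 1 and 9.64% of apelin 2. The means were 11.4% ± 0.15 (SD, n = 2) and 9.56% ± 0.12 (SD, n = 2), a difference of -1.87 percentage points, and the groups did not overlap. With 2 libraries against 2 an exact permutation test, two-sided, cannot give a p under 0.333 for any such difference. let-7a-5p alone accounted for 73.6% of the difference, since it went from 5.40% and 5.67% of the controls to 4.38% and 3.94% of the apelin libraries. miR-21-5p, the most abundant entry by mean level, took 9.14% and 10.3% of the controls and 11.4% and 16.8% of apelin 1 and 2. With miR-21-5p left out of the totals, an alternative chosen after seeing the data, the family held 12.7% and 12.6% of the controls and 10.7% and 11.6% of the apelin libraries, and the groups still did not overlap.

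**Figure D2:**
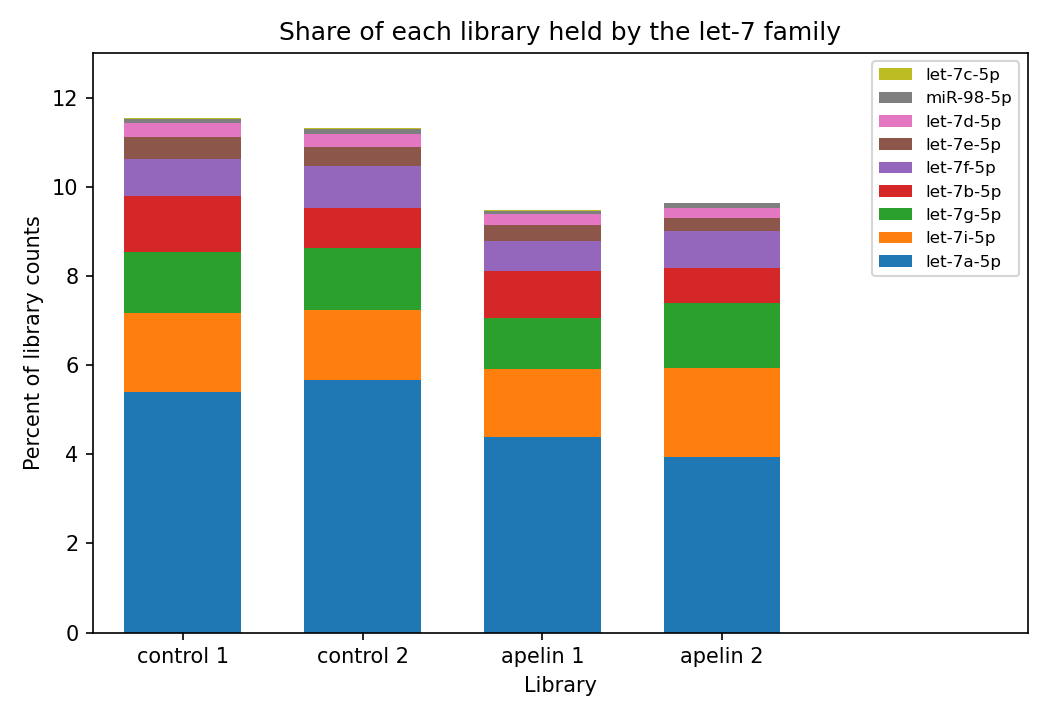
Percent of each library's counts held by the let-7 family, stacked by member from let-7a-5p at the bottom (let-7c-5p is too thin to see). The bars of the controls reach 11.54% and 11.32%, those of the apelin libraries 9.48% and 9.64%, and most of the gap is in the let-7a-5p segment.

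Within the family, the balance between let-7a-5p and let-7i-5p stood apart in apelin 2. let-7a-5p made up 46.8% and 50.1% of the family's counts in the controls, 46.2% in apelin 1 and 40.8% in apelin 2. let-7i-5p made up 15.2% and 13.8% in the controls, 16.3% in apelin 1 and 20.7% in apelin 2. Both shares parted the groups, that of let-7a-5p narrowly between control 1 and apelin 1 (exact permutation test, two-sided, p = 0.333, the smallest possible). Such a parting is common in these libraries. By TPM, 17.5% of the 263 entries with a mean of at least 10 TPM had both apelin libraries below both controls, and 20.9% above. The group difference in the let-7a-5p share was -4.92 percentage points, or -2.21 without apelin 2, -3.27 without control 2 and -7.63 without apelin 1. The other 7 members' shares overlapped between the groups. let-7g-5p, for example, held 11.9% and 12.3% in the controls, 12.02% in apelin 1 and 15.1% in apelin 2.

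No member passed the test between apelin and control libraries. The edgeR quasi-likelihood test, with Benjamini-Hochberg adjustment over all 263 tested entries and a threshold of 0.05, called 0 of 9 members and 0 entries in all (0%). Without control 1 it called 11 entries and without control 2 it called 19, with 0 members among them. At an unadjusted p under 0.05 there were 2 of 9 members, let-7a-5p and let-7d-5p, against 15 of 263 entries (5.7%). Both had negative values, against 8 lower entries (3.04%). Log2 fold changes (apelin minus control) were negative for 8 of 9 members, against 50.6% of the tested entries, and the members' median was -0.23 against -0.018 over all tested entries. Of the other tools, limma called 4 entries and DESeq2 53 (20.2%), with 0 and 4 members among them. The 4 that DESeq2 called were let-7a, let-7c, let-7d and let-7e (5p arms), all with negative values, against 34 lower entries in all (12.9%). On the 207 catalogue names with counts in every library, a setting chosen after seeing the data, DESeq2 called 0 members and 0 entries (26 at an unadjusted p under 0.05, 4 of them members). The log2 fold changes of those 4 were -0.40, -0.46, -0.38 and -0.49 in both DESeq2 runs, in the order a, c, d, e, and the SE of let-7a-5p was 0.061 in the first run and 0.16 in the second.

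For those same 4 of 9 members both apelin libraries stood under both controls, against 46 of the 263 tested entries (17.5%). Both stood above both controls for 0 members, against 55 tested entries (20.9%). For the other 5 members the groups overlapped. let-7a-5p, which targets RAS and HMGA2 like the rest of the family, had a log2 fold change of -0.39 (SE 0.049, 95% interval -0.55 to -0.24, edgeR adjusted p = 0.235). The width of this interval depends on the setting. With all 4 libraries, the edgeR SE of let-7a-5p ran from 0.048 (minimum 1 TPM) to 0.19 (no filter), with 0.11 on the catalogue names with counts in every library. The difference of the means, -13764 TPM, exceeded the SD of the controls (1935 TPM) and of the apelin libraries (3162 TPM). let-7e-5p, cut from the transcript that also gives miR-125a, had -0.49 (SE 0.17, 95% interval -1.05 to 0.069, edgeR adjusted p = 0.627). let-7c-5p, from the MIR99AHG host, had -0.45 (SE 0.17, edgeR adjusted p = 0.627), and let-7d-5p, the member with an A at its 5′ end, had -0.37 (SE 0.094, edgeR adjusted p = 0.627). The others were let-7b-5p at -0.23 (SE 0.27), let-7f-5p at -0.19 (SE 0.17), miR-98-5p at -0.096 (SE 0.30), let-7g-5p at -0.066 (SE 0.19) and let-7i-5p at 0.11 (SE 0.22), with edgeR adjusted p from 0.688 to 0.909. The interval of let-7i-5p, -0.60 to 0.83, spans a lower and a higher level alike. The sign of 4 members turned when 1 library was dropped: let-7b-5p was 0.035 without control 1, let-7g-5p 0.12 and miR-98-5p 0.18 without apelin 1, and let-7i-5p -0.19 without apelin 2.

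let-7a-5p held the largest part of the lower family total in both apelin libraries. The libraries differed in where let-7b-5p, let-7f-5p, let-7g-5p, let-7i-5p and miR-98-5p stood against the controls. In apelin 1, 8 of 9 members stood below both controls, all but let-7b-5p, against 25.1% of the tested entries. In apelin 2, 5 of 9 stood below both controls, against 41.4% of the tested entries, and 2 stood above both, against 32.7%. The 5 were let-7a-5p to let-7e-5p, whose levels differed from the control means by -36.6% to -27.6%, and the 2 were let-7g-5p (5.36% over the control mean) and let-7i-5p (20.0% over). let-7f-5p and miR-98-5p lay between the controls in apelin 2, though with TMM scaling miR-98-5p was above both there.

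**Figure D3:**
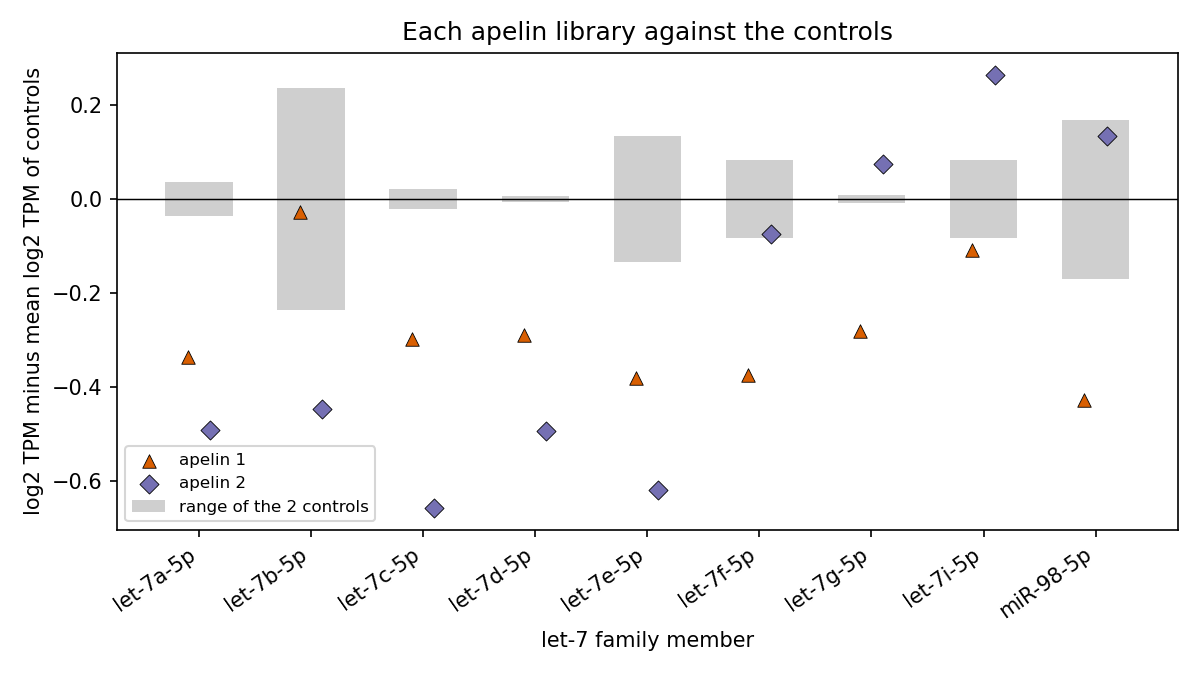
Log2 TPM of each member in apelin 1 and apelin 2 minus the mean log2 TPM of the 2 controls, with grey bars for the range of the controls. Both points lie under the bar for let-7a, let-7c, let-7d and let-7e, while let-7f-5p, let-7g-5p, let-7i-5p and miR-98-5p are lower in apelin 1 than in apelin 2.

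Between the apelin libraries the members differed in both directions. let-7a-5p to let-7e-5p, which all have gg at positions 11 and 12, were lower in apelin 2, at 0.90, 0.75, 0.78, 0.87 and 0.85 times their level in apelin 1, in the order a to e. let-7f-5p (ga there), let-7g-5p and let-7i-5p (gu) and miR-98-5p (ag) were higher, at 1.23, 1.28, 1.30 and 1.48 times. Summed, let-7a-5p to let-7e-5p held 7.49% and 7.33% of the controls, 6.05% of apelin 1 and 5.25% of apelin 2. The other 4 held 4.05% and 3.998% of the controls, 3.43% of apelin 1 and 4.39% of apelin 2, so their groups overlapped. This division was noticed in the values and has no test.

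Base composition moved with the same difference across the table. Of the 207 tested catalogue entries with counts in every library, 178 (86.0%) matched a RefSeq sequence by name. Over these, the log2 difference between apelin 2 and apelin 1 had a Spearman rho of -0.68 with the percent of G and C in the mature sequence. This describes points that share both libraries, and miRNAs are not independent replicates. Some entries had equal differences, such as miR-24-3p and miR-24-2-3p, so the 207 may hold 1 miRNA more than once. Whether such entries repeat the same reads in the library totals, and so in the family's percent, was not tested. The difference between the controls had a rho of -0.27, and the group log2 fold change of -0.29. Among the members, miR-98-5p and let-7f-5p have 31.8% G and C, let-7a-5p and let-7g-5p 36.4%, let-7b-5p 45.5% and the other 4 40.9%. let-7a-5p and let-7g-5p, with equal composition, moved in opposite directions between the apelin libraries (-0.16 and 0.36 on the log2 scale), as did let-7c-5p and let-7i-5p (-0.36 and 0.37). The part of base composition in the members' group differences was not tested. The interquartile range of the difference over the 207 entries was -0.38 to 0.19 between the apelin libraries and -0.13 to 0.17 between the controls.

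**Figure D4:**
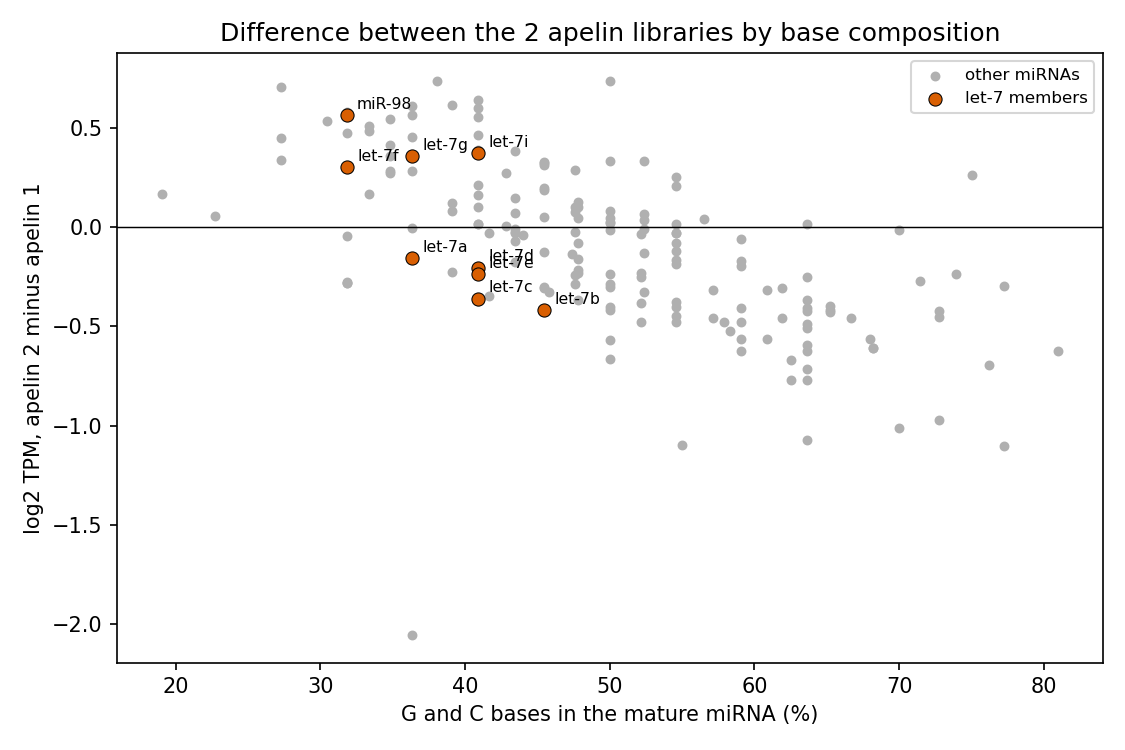
Log2 TPM of apelin 2 minus that of apelin 1 against the percent of G and C bases, for 178 tested entries above 0 in all libraries (grey) with the 9 let-7 members in orange. The cloud slopes downward (Spearman rho -0.68), and at 36.4% and 40.9% members stand on both sides of 0.

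Partners cut from the same host transcripts gave a ratio within each library that no scaling changes. let-7c-5p and miR-99a-5p share MIR99AHG. miR-99a-5p stood at 197.8 and 194.1 TPM in the controls and 202.7 and 200.7 TPM with apelin (log2 fold change 0.061, SE 0.13, edgeR adjusted p = 0.873). let-7c-5p had 98.0 and 102.9 counts per 100 of miR-99a-5p in the controls, and 79.0 and 62.2 with apelin. The groups of this ratio did not overlap, with means of 100.4 ± 3.5 and 70.6 ± 11.9 (SD, n = 2 each; exact permutation test, two-sided, p = 0.333, the smallest possible). Both miRNAs are low beside let-7a-5p and miR-100-5p (53985 and 95571 TPM in control 1). How many of their counts came from reads of more abundant miRNAs was not tested.

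let-7a-5p had 56.5 and 61.9 counts per 100 of miR-100-5p in the controls and 52.5 and 45.8 with apelin, again without overlap. MIRLET7A2 is 1 of 3 sources of let-7a-5p, so this ratio mixes transcripts. Per 100 of miR-125b-5p, which MIR125B1 on chromosome 11 and MIR125B2 on chromosome 21 both give, let-7a-5p had 111.5 and 110.2 counts in the controls and 86.8 and 103.1 with apelin. let-7e-5p had 14.3 and 13.4 counts per 100 of miR-125a-5p in the controls and 11.3 and 14.2 with apelin, so the groups overlapped (exact permutation test, two-sided, p = 0.667). Of these 4 partner ratios, 3 reached the smallest p the design allows, and over the 16 ratios computed their Benjamini-Hochberg adjusted p was 0.889. The smallest p means only that the groups did not overlap. By TPM, 17.5% of the 263 tested entries had both apelin libraries below both controls, and 20.9% above. The same p was reached by let-7g-5p and let-7i-5p per 100 let-7a-5p, and by let-7g-5p per 100 let-7i-5p. The rest of the ratios computed overlapped between the groups.

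Of the 4 partners, 0 were called by edgeR, with log2 fold changes of -0.34 (SE 0.23) for miR-125a-5p, -0.16 (SE 0.14) for miR-125b-5p and -0.12 (SE 0.087) for miR-100-5p. At an unadjusted p under 0.05 there were 0 of them, and DESeq2 also called 0. miR-100-5p was lower in both apelin libraries than in either control, as was miR-125a-5p by a narrow margin (31639 TPM in apelin 1 against 31645 TPM in control 2). miR-99a-5p was higher in both, also by a narrow margin (200.65 TPM in apelin 2 against 197.84 TPM in control 1).

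**Figure D5:**
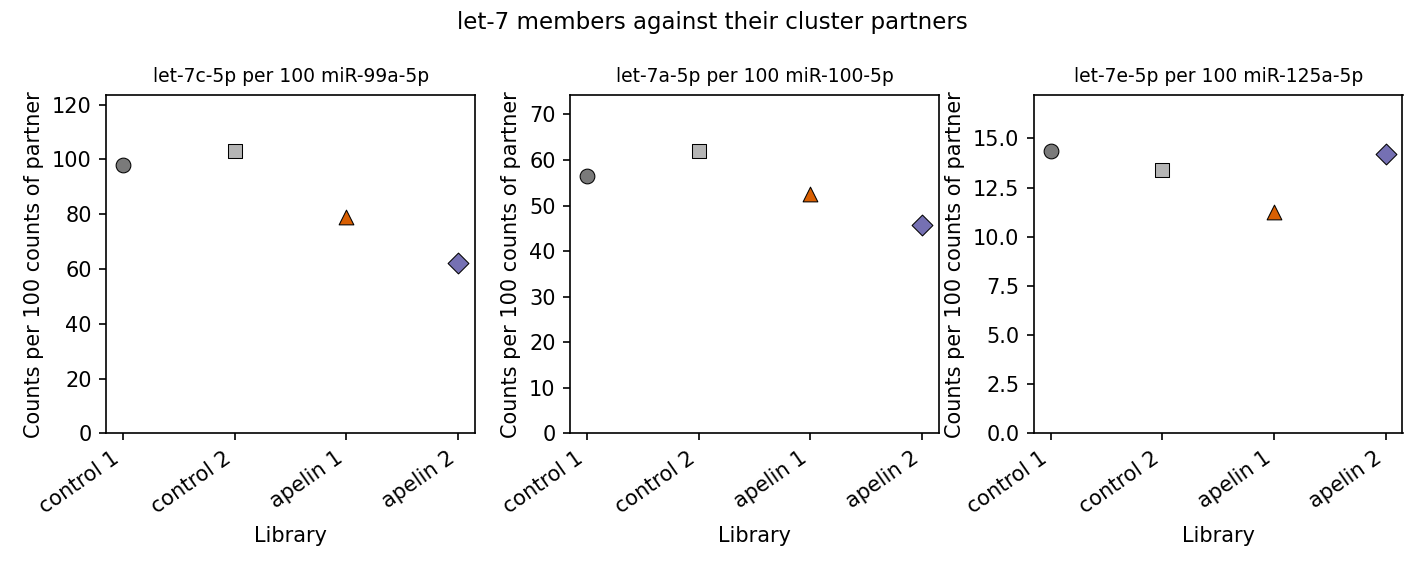
Counts of a let-7 member per 100 counts of a partner from the same host transcript, 1 point per library. let-7c-5p per 100 miR-99a-5p is 98.0 and 102.9 in the controls and 79.0 and 62.2 with apelin, and let-7e-5p per 100 miR-125a-5p overlaps between the groups.

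Ratios between members with hairpins in 1 chromosomal cluster varied by library, and these ratios mix clusters. let-7f-5p sums hairpins on chromosomes 9 and X, and let-7a-5p sums those on chromosomes 9, 11 and 22. let-7d-5p and let-7f-5p are neighbours on chromosome 9, and let-7d-5p had 36.9 and 33.2 counts per 100 of let-7f-5p in the controls, 37.1 in apelin 1 and 26.2 in apelin 2. miR-98-5p and let-7f-5p are neighbours in HUWE1, where miR-98-5p had 10.6 and 11.9 counts per 100 of let-7f-5p in the controls, 10.8 in apelin 1 and 13.01 in apelin 2. let-7d-5p followed let-7a-5p more closely, with 5.65 and 5.43 counts per 100 in the controls and 5.72 and 5.53 with apelin.

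Outside the family, the profiles most like that of let-7a-5p over the 4 libraries were those of miR-181b-5p, miR-200c-3p and miR-375-3p. Their root mean square differences from let-7a-5p, on log2(TPM + 1) after subtracting each profile's mean, were 0.020, 0.027 and 0.034. These 3 were picked as the smallest out of 204 tested catalogue entries. miR-181b-5p stood at 1397 and 1506 TPM in the controls and 1175 and 1049 TPM with apelin. miR-200c-3p (22.98 to 33.25 TPM) and miR-375-3p (12.1 to 17.7 TPM) were low, and the part of counting error in their profiles was not tested. Within the family let-7d-5p was nearest at 0.029 and let-7c-5p next at 0.078, while let-7i-5p, at 0.32, was farther from let-7a-5p than 126 of the 204.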

How the data were processed

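Small RNA was ligated to adaptors, amplified and size-selected on a gel, per the labels' protocols. The submitters' processing notes name Trimmomatic 0.30 and DESeq2. Not given in the sources used here: aligner, miRNA catalogue and genome build. The authors deposited raw read counts and TPM values. The deposited TPM equals CPM, without division by length, to within 0.005 in 3 libraries and 0.151 in apelin 2.

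Counts were tested with edgeR's quasi-likelihood test (TMM scaling, apelin minus control) on the 263 entries with a mean of at least 10 TPM, which is 53.2 to 60.1 counts. SEs came from the absolute log2 fold change divided by the root of F. The test was checked on counts simulated with changes larger than that of any member, so the check did not cover changes of the size seen here. Versions were R 4.3.3, edgeR 4.0.16, limma 3.58.1, DESeq2 1.42.0, Python 3.11.15 and scipy 1.17.1. Counts of same-group libraries differed beyond sampling noise (chi-square per degree of freedom 176 and 672). A count of 0 allows up to 3 counts, 0.499 to 0.564 TPM. Members and lists were chosen with earlier results of these data known. Named miRNAs are the members, their listed cluster partners, and the 3 profiles nearest let-7a-5p. miR-21-5p was added after its values were seen. The 6 epithelial miRNAs, miR-375-3p and miR-9-5p are named as cell type markers. Alternatives were other scalings, filters, tools, a replicate block and each library left out.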

Additional observations from a re-analysis of the deposited data

How the results depend on the processing

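Over 16 other settings, 5 of 9 members kept the sign of their log2 fold change throughout, and 4 changed it only with a library left out. Leaving out each library gave let-7b-5p from -0.49 to 0.035 (without control 1), let-7g-5p from -0.36 to 0.12 (without apelin 1), let-7i-5p from -0.19 (without apelin 2) to 0.31, with -0.013 without control 2, and miR-98-5p from -0.52 to 0.18 (without apelin 1), with 0.033 without control 2. let-7a-5p ran from -0.44 to -0.41. These fits have fewer samples, and the lone library of a group is assumed to vary like the other group. The members' median, -0.23 in the main test, was -0.42 to -0.26 with a library left out (-0.41 without control 2, -0.42 without apelin 1, -0.38 without apelin 2). Called members numbered 4 with DESeq2 on all entries and 0 elsewhere. Called entries numbered 0 in the main test, 4 at a minimum of 100 TPM, 52 with no filter, 53 with DESeq2, 4, 5 and 4 with limma at a pseudocount of 1, 0.1 and 10, and 0 to 19 with a library left out (11 without control 1, 19 without control 2). The cause was not tested. With a replicate block edgeR called 0 entries (50 at an unadjusted p under 0.05) and 0 members. No label ties same-numbered libraries together, though their deviations had a correlation of 0.318 across 207 entries. The family difference of -1.87 percentage points was -1.72 with TMM-scaled totals and -1.52 without miR-21-5p in the totals, the latter chosen after seeing the data, and -1.98 to -1.76 with a library left out. The let-7a-5p share of the family differed by -4.92 points, and by -7.63 to -2.21 with a library left out. The planned sum with 3p arms was not run. Depth limits let-7c-5p most, at 711 to 1166 counts.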

Other observations

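let-7c-5p and let-7a-5p, which differ by A19G, were both lower in the apelin libraries than in the controls. let-7c-5p had 0.359 and 0.352 counts per 100 of let-7a-5p in the controls, 0.365 in apelin 1 and 0.317 in apelin 2, so the groups overlapped. How many of the let-7c-5p counts came from reads of let-7a-5p was not tested.

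The ratio of let-7b-5p to let-7f-5p followed the replicate number and not the treatment. let-7b-5p had 151.6 counts per 100 of let-7f-5p in control 1 and 154.4 in apelin 1, against 97.2 in control 2 and 93.8 in apelin 2. It is 1 of the 16 ratios computed, and the split by replicate number has no test. The second library differed from the first in the same direction in both groups for 5 of 9 members (let-7b-5p, let-7e-5p, let-7f-5p, let-7g-5p and miR-98-5p) and in opposite directions for 4. let-7e-5p in the second library was at 0.83 times the first in controls and 0.85 times with apelin, and miR-98-5p at 1.27 and 1.48 times. Of the 4, let-7i-5p was at 0.89 times in controls and 1.30 times with apelin, let-7a-5p at 1.05 and 0.90 times, let-7c-5p at 1.03 and 0.78 times and let-7d-5p at 1.01 and 0.87 times. Across 207 entries the deviations of same-numbered libraries had a correlation of 0.318. The labels do not say that same-numbered libraries were prepared together.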
